A study of Homo sapiens with 65 samples.

Results

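The 10 genes described here mark the path from mesoderm to endothelium: the transcription factors ETV2, ERG and SOX18, the receptors KDR, FLT1 and TEK, the junction and adhesion genes PECAM1, CDH5 and ESAM, and FGD5. They were taken as a list of names out of 58735 genes in the count table, with earlier results of these data known. FGD5 was picked for its rise under early hyaluronidase at day 2.5, so its value in that comparison is given as a description with no test. The libraries come from left ventricular cardioids, small heart-like aggregates grown from the human induced pluripotent stem cell line WTC-11, with 8 cardioids pooled in each library and 65 libraries in 16 groups.

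In the genotype arm (41 libraries) wild-type lines labelled WT, WT_TU, cl43_WT_UT and TNT2 were set beside HAS2-KO clones labelled cl4, cl14, cl46 and cl51. Day 1.5 had 5 WT and 6 KO libraries, days 2.5 and 4.5 had 6 of each, and day 7.5 had 3 of each. The clone cl4 supplied several of the KO libraries of each day, so libraries of a genotype are not all separate clones. In the enzyme arm (24 libraries) hyaluronidase, the enzyme that digests hyaluronan, was present until collection, starting on day 1.5 (here HAse1.5) or on day 2.5 (here HAse2.5), and untreated cardioids were the controls. Each of its 8 groups held 1 library from each of the 3 lines labelled TNNI1, WT and TNNT2, all of WTC-11 origin. HAse1.5 was collected at days 2.5, 4.5 and 7.5, and HAse2.5 at days 4.5 and 7.5. All groups shared the same differentiation course: mesoderm induction in plates until day 1.5, then reseeding as aggregates in patterning media. The enzyme's dose is not given in the sources used here.

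ETV2 is the pioneer ETS-family factor that commits mesoderm to blood and endothelial fates, and ERG and SOX18 act later to hold endothelial identity. KDR (VEGF receptor 2) carries the main VEGF signal and is already made by mesodermal progenitors before endothelium forms. FLT1 (VEGF receptor 1) binds VEGFA and placental growth factor and largely acts as a decoy, and TEK (TIE2) is the receptor of the angiopoietins. PECAM1, CDH5 (VE-cadherin) and ESAM join endothelial cells to each other, and FGD5 is a guanine exchange factor for CDC42 found in endothelial and haematopoietic stem cells.

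KDR and FLT1 were the members with the most reads and rose together between days 1.5 and 2.5, so the 250 bases before their RefSeq starts are shown here (GRCh38.p14), with the core letters bound by ETS factors (GGAA, on either strand) in capitals. KDR lies on the minus strand and the window is chr4:55125596-55125845. FLT1 also lies on the minus strand and the window is chr13:28495129-28495378.
KDR: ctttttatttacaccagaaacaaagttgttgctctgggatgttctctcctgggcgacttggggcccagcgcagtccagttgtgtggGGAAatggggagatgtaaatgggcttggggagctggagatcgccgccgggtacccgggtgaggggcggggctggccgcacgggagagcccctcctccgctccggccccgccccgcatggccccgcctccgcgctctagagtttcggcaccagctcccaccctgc
FLT1: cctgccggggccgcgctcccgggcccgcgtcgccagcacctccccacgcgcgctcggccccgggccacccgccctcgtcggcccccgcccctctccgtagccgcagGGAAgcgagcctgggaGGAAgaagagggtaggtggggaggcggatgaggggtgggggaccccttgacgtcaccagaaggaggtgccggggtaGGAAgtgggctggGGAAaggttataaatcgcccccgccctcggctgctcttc
The KDR window holds 1 match to GGAA or TTCC and the FLT1 window holds 4, with no overlap between matches. Of 35116 promoter windows of 250 bases, 92.7% hold at least 1 match, and the median is 3, so these letters are common. The palindrome TGACGTCA, the cAMP response element, occurs once in the FLT1 window, once in the ETV2 window and in 1.6% of all windows. RefSeq windows were found for 6 of the 10 members (ETV2, ERG, KDR, FLT1, TEK and FGD5). A match is a match of letters, and no binding was measured.

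The level of a gene is given as CPM, the usual normalised read count: the reads of that gene relative to all reads counted in the library. Total counts ran from 831062 to 3574843 with a median of 1570954. A group in which no library had more than 3 reads of a gene is called at the floor. Reads were taken from the 3′ ends of transcripts, so CPM of different genes is not set per length. A bulk library cannot tell fewer cells that make a transcript from less of it in each cell. HAS2 itself, the gene named in the knockout labels, had 582 ± 174 CPM (SD, n = 6) in KO and 657 ± 192 CPM (SD, n = 6) in WT at day 2.5. The edited part of HAS2 is not given in the sources used here, so its 3′ reads do not check the labels. The labels call the cells cardiac progenitors or cardiomyocytes, and the summed level of 10 cardiomyocyte genes in WT went from 61.6 to 117 CPM at day 1.5 up to 53121 to 64917 CPM at day 7.5.

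In GENCODE 29 (GRCh38) all 10 members are protein-coding. ETV2 lies on chromosome 19 (35641745 to 35644871), ERG on 21 (38380027 to 38661780) and SOX18 on 20 (64047582 to 64049641). KDR lies on chromosome 4 (55078259 to 55125595), FLT1 on 13 (28300344 to 28495145) and TEK on 9 (27109141 to 27230175). PECAM1 lies on chromosome 17 (64319415 to 64413776), CDH5 on 16 (66366622 to 66404786), ESAM on 11 (124752583 to 124762290) and FGD5 on 3 (14810853 to 14934565).

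The 10 genes fell into 3 tiers. KDR and FLT1 had reads in 65 of 65 libraries, with median levels of 129 and 168 CPM. ETV2, TEK and FGD5 had group means from 0.418 to 18.8 CPM, and their highest single libraries held 32, 40 and 31 reads. PECAM1, ESAM, ERG, CDH5 and SOX18 were lower still, with a read in 36, 46, 34, 24 and 18 of 65 libraries and more than 3 reads in 21, 21, 11, 5 and 5. CDH5 and SOX18 were at the floor in 12 of 16 groups each, ERG in 8, ESAM in 5, PECAM1 in 4, TEK in 3, FGD5 in 1, and ETV2, KDR and FLT1 in 0. The junction genes that define endothelium had at most 8 reads in any library of days 1.5 and 2.5, while KDR had at least 75 reads there.

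**Figure D1:**
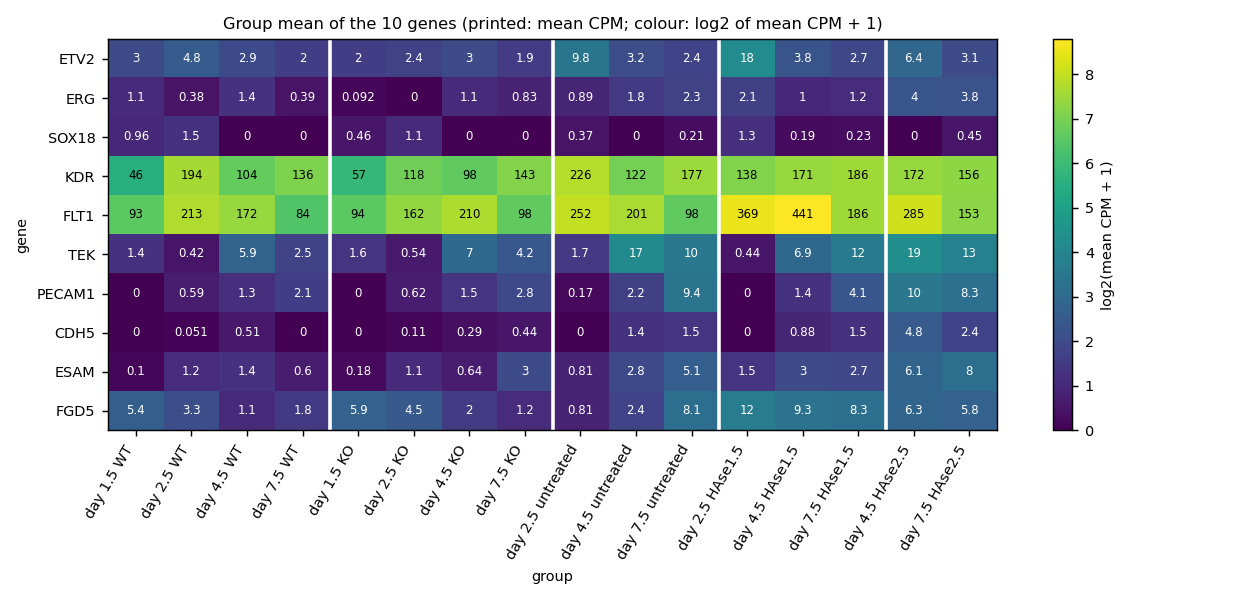
Mean CPM of the 10 genes (rows) in the 16 groups (columns); the number in each cell is the mean in CPM and the colour is log2 of that mean plus 1. KDR and FLT1 stand far above the other 8 genes in every group, and PECAM1, CDH5 and ESAM have their highest means among the day 4.5 and day 7.5 groups of the enzyme arm.

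A gene entered the test where its counts passed a filter on low values. In the genotype arm 13797 genes and 5 members (ETV2, KDR, FLT1, TEK and FGD5) did so. In the enzyme arm 12748 genes and 7 members did so, with PECAM1 and ESAM added. CDH5, SOX18 and ERG were tested in neither arm. A member is said to have risen or fallen where its adjusted p, taken over all genes tested, was under 0.05, and fitted differences are on the log2 scale with their standard errors (SE).

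The normal course came first. Between days 1.5 and 2.5 in WT, KDR and FLT1 both rose, so that 2 of the 5 members tested were called, against 30.1% of all genes tested. This step spans the reseeding from plates as aggregates in patterning media, whose part cannot be told apart from that of time. KDR was at 21.0, 41.9 and 80.5 CPM at day 1.5 (lowest, median and highest of 5 WT libraries; mean 45.5 ± 24.4, SD) and at 60.5, 204 and 309 CPM at day 2.5 (of 6; mean 194 ± 103, SD). The KDR groups overlapped only through the lowest day 2.5 library, and the fitted rise was 1.92 ± 0.40 (SE; adjusted p = 0.000217). FLT1 went from 46.6, 104 and 135 CPM to 118, 198 and 343 CPM, again with some overlap, and rose by 1.02 ± 0.29 (SE; adjusted p = 0.00519). ETV2 had 3.02 ± 1.68 CPM (SD, n = 5) and then 4.83 ± 3.43 CPM (SD, n = 6), a difference within the spread of the libraries (adjusted p = 0.599).

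Between days 2.5 and 4.5 TEK rose in WT, the only call among the 5 members tested, where 34.5% of all genes tested were called. TEK could pass the filter on low counts only through libraries where it was high. In a fit of only these 2 groups it was not among the genes tested. The TEK call is thus given as a description, and nothing is read from this count. TEK was at the floor at day 2.5, with at most 3 reads in each of 6 WT libraries, and had 1.44, 3.52 and 13.2 CPM at day 4.5 (lowest, median and highest of 6). The 2 highest TEK libraries were those of TNT2 and cl43_WT_UT. Against a floor of 3 reads in each library the day 4.5 mean was at least 3.85-fold higher (adjusted p = 0.00206). KDR had 194 ± 103 CPM and then 104 ± 68.2 CPM (SD, n = 6 each), with a fitted difference of -0.89 ± 0.36 (SE) whose adjusted p of 0.0501 missed the threshold. Without any 1 of the day 2.5 libraries WT_R1, WT_TU_R1 and WT_TU_R2 or the day 4.5 libraries cl43_WT_UT and TNT2 it passed (adjusted p from 0.0128 to 0.0436). Between days 4.5 and 7.5 none of the 5 members tested was called in WT, against 2.70% of all genes tested. FLT1 had 172 ± 71.8 CPM at day 4.5 (SD, n = 6) and 83.9 ± 13.0 CPM at day 7.5 (SD, n = 3), a difference of -0.99 ± 0.34 (SE; adjusted p = 0.124).

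The untreated cardioids of the enzyme arm gave these steps in a separate set of libraries. Between days 2.5 and 4.5, 3 of the 7 members tested were called, against 23.0% of all genes tested: TEK rose, and KDR and ETV2 fell. TEK was at 2.04, 0.894 and 2.24 CPM at day 2.5 and at 8.87, 16 and 26.4 CPM at day 4.5 (lines TNNI1, WT and TNNT2 in this order, here and below). It rose in every line, by 3.04 ± 0.61 (SE; adjusted p = 0.000736). KDR went from 166, 278 and 232 CPM to 109, 141 and 115 CPM, lower in each line and with no overlap (-1.01 ± 0.29, SE; adjusted p = 0.0146). In this step the groups did not overlap for 42.6% of all genes tested. ETV2 went from 8.68, 11.6 and 8.97 CPM to 2.05, 6.22 and 1.39 CPM, also lower in each line (-1.75 ± 0.64, SE; adjusted p = 0.0482), and this last call did not survive leaving out any single library other than the WT line of day 4.5 (adjusted p up to 0.185), nor a fit without the filter (0.0985). The KDR call was lost without the TNNI1 or the TNNT2 library of day 4.5 or the WT library of day 2.5 (adjusted p up to 0.0734). FLT1 had a difference of -0.46 ± 0.20 (SE; adjusted p = 0.0957), which passed without the TNNI1 library of day 2.5 (adjusted p = 0.0196).

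From day 4.5 to day 7.5 untreated FLT1 fell, the 1 call among the 7 members tested, against 6.39% of all genes tested. Its values were 171, 236 and 197 CPM at day 4.5 and 106, 83.0 and 105 CPM at day 7.5, every late library below every earlier one (-0.92 ± 0.20, SE; adjusted p = 0.00838). The 2 days were apart, in either direction, for 27.7% of all genes tested. Without the WT line library of day 4.5 the adjusted p of FLT1 was 0.0573. PECAM1 had 3.41, 1.78 and 1.39 CPM and then 7.14, 3.19 and 17.8 CPM, higher in each line but not past the threshold (adjusted p = 0.108). It passed without the WT line library of day 7.5 (adjusted p = 0.0398). KDR had 177 ± 46.8 CPM at day 7.5 (SD, n = 3) after 122 ± 17 CPM at day 4.5 (SD, n = 3; adjusted p = 0.166).

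The comparison of KO with WT asks how these genes differ in clones labelled as knockouts of HAS2, which encodes a hyaluronan synthase. No member was called at any of the 4 days. The 5 members tested gave 0 calls at day 1.5 (0% of all genes tested were called), 0 at day 2.5 (0.993%), 0 at day 4.5 (3.74%) and 0 at day 7.5 (0.348%). At an unadjusted p under 0.05 there was 1 member in these 4 comparisons, KDR at day 2.5. The median difference of the 5 members was 0.13, -0.42, 0.20 and 0.05 at the 4 days, beside medians of 0.00, 0.01, -0.03 and 0.00 over all genes tested. The test of whether the KO difference changed over days called 0 of the 5, against 0.674% of all genes.

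KDR at day 2.5 had the lowest p among them. WT libraries had 60.5, 204 and 309 CPM (lowest, median and highest of 6) and KO libraries had 78.9, 114 and 158 CPM (of 6). The KO values sat inside the WT range, and the fitted difference was -0.77 ± 0.36 (SE; adjusted p = 0.434). The library numbers in the labels form 3 runs, here blocks: the R1 set of the lines WT, WT_TU and cl4 (block A), the R2 set of those lines (block B), and the remaining libraries (block C). Within block A KDR was higher in KO (150 CPM in 1 library against 85.7 CPM in 2, the KO library being the shallowest of the series with 831062 reads), within block B lower (78.9 in 1 against 204 in 2), and within block C lower (119 in 4 against 292 in 2). Without the block A libraries, an alternative chosen after seeing the data, the difference was -1.19 with an adjusted p of 0.00729. With the block as a term in the fit, KDR had an adjusted p of 0.0595 and FLT1 passed the threshold instead, lower in KO by -0.65 (adjusted p = 0.00966).

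FLT1 at day 2.5 had 118, 198 and 343 CPM in WT and 96.3, 169 and 217 CPM in KO (lowest, median and highest of 6 each), overlapping groups with a difference of -0.42 ± 0.27 (SE; adjusted p = 0.590). Within blocks A, B and C its KO means of 96.3, 147 and 183 CPM were each below the WT means of 145, 187 and 307 CPM. By day 4.5 KDR was at 98.2 ± 37.7 CPM in KO and 104 ± 68.2 CPM in WT, and FLT1 at 210 ± 60.9 CPM and 172 ± 71.8 CPM (SD, n = 6 each). At day 7.5 the KDR means were 143 ± 15.5 and 136 ± 52.0 CPM, and the FLT1 means 97.8 ± 12.5 and 83.9 ± 13.0 CPM (SD, n = 3 each). WT at day 7.5 comes from blocks A and B and KO from blocks B and C, so only block B holds both.

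ETV2 in KO at day 2.5 had 1.20, 1.90 and 4.47 CPM beside 0.713, 5.15 and 10.2 CPM in WT (lowest, median and highest of 6 each). The counts behind these values were 1 to 7 and 1 to 20 reads, the groups overlapped, and the difference was -1.03 ± 0.60 (SE; adjusted p = 0.551). TEK was at the floor in both genotypes at day 2.5 and reached 7 ± 2.97 CPM in KO and 5.94 ± 5.28 CPM in WT at day 4.5 (SD, n = 6 each), a difference of 0.20 ± 0.74 (SE). FGD5 had means of 5.39 and 5.86 CPM at day 1.5 and 1.13 and 1.98 CPM at day 4.5 in WT and KO. Its WT steps did not pass (adjusted p = 0.449 and 0.173), except from day 2.5 to 4.5 with the library-number block in the fit (adjusted p = 0.0330). Its KO difference at day 4.5 was 0.85 ± 0.96 (SE; adjusted p = 0.650).

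**Figure D2:**
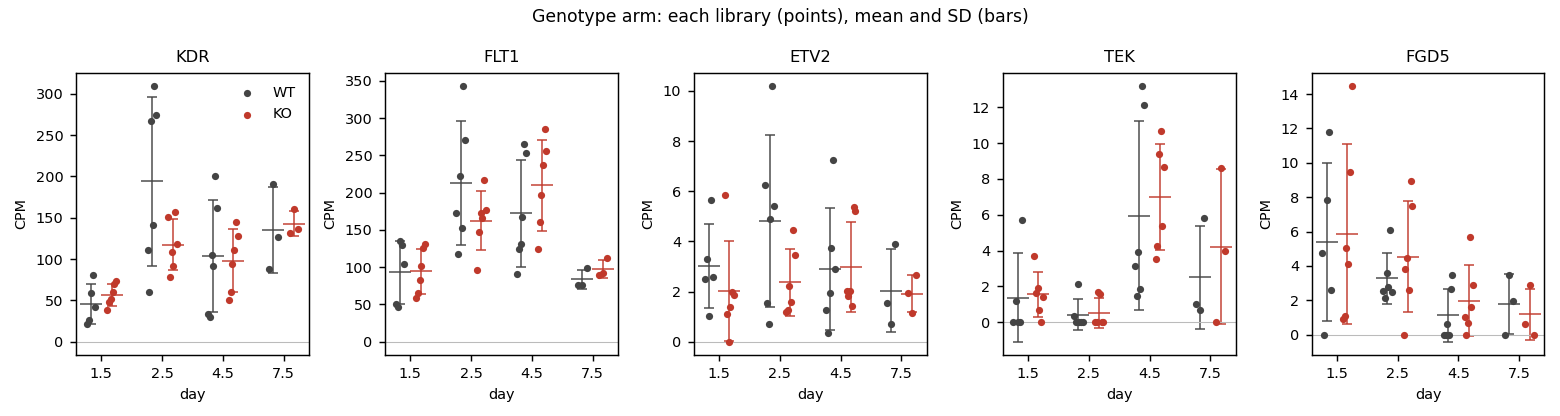
CPM of 5 members (panels) against day in the genotype arm; points are libraries, bars are the mean ± SD, WT in dark grey and KO in red. KDR and FLT1 rise from day 1.5 to day 2.5 in WT, TEK rises by day 4.5, and the KO points overlap the WT points in every panel and day shown.

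Hyaluronidase from day 1.5 was compared with untreated cardioids of the same lines. FLT1 was the member that changed: it rose at day 4.5 and at day 7.5 in all 3 lines. At day 4.5 untreated FLT1 was at 171, 236 and 197 CPM and HAse1.5 at 552, 366 and 405 CPM. No treated library reached down to an untreated one, and 21.6% of all genes tested were apart in either direction. The FLT1 rise was 1.05 ± 0.20 (SE; adjusted p = 0.00231). It was the 1 call among the 7 members tested at day 4.5, against 3.48% of all genes tested, and it passed in all 11 alternative fits run. At day 7.5 FLT1 had 106, 83.0 and 105 CPM untreated and 205, 183 and 169 CPM under HAse1.5, again apart, as were 17.7% of all genes tested. The rise at day 7.5 was 0.81 ± 0.20 (SE; adjusted p = 0.0252). This was also the 1 call of 7, against 3.33% of all genes tested. Leaving out the TNNI1 or the WT line library of either group ended the day 7.5 call (adjusted p from 0.0558 to 0.116), as did a fit on these groups alone (0.126).

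Markers of other cell types moved in the same libraries. The summed level of 10 cardiomyocyte genes ran from 23646 to 45570 CPM in untreated cardioids at day 4.5 and from 5223 to 19409 CPM under HAse1.5. Of these genes 6 of 10 were lower and 0 higher, where 2.41% of all genes tested were lower. At day 7.5 the sum ran from 60310 to 70793 CPM untreated and from 30222 to 34146 CPM under HAse1.5, with 4 of 10 lower (1.92% of all genes tested). In KO the sum ran from 16096 to 41941 CPM at day 4.5, beside 27433 to 57685 CPM in WT, with 4 of 10 lower (2.60% of all genes tested). The 9 blood cell markers summed to 4.44 to 13.0 CPM in untreated and 4.32 to 171 CPM in HAse1.5 libraries at day 4.5, with 5 of the 9 lacking any read in the latter. Of the 2 blood markers tested there, 0 were called. The 7 endoderm markers summed to 60.6 to 393 CPM untreated and 4.31 to 32.1 CPM under HAse1.5 at day 7.5. Among them AFP and APOB were lower (adjusted p = 0.00167 and 0.00571), with untreated libraries far apart. AFP had 37.3 ± 40.5 CPM untreated (SD, n = 3) and was at the floor under HAse1.5. APOB had 93.4 ± 106 CPM untreated and 4.03 ± 3.52 CPM under HAse1.5 (SD, n = 3 each). The 7 epicardial and fibroblast markers summed to 820 to 2091 CPM untreated and 539 to 1031 CPM under HAse1.5 at day 4.5. At day 7.5 these sums overlapped, with 345 to 1116 CPM untreated and 587 to 1095 CPM under HAse1.5. Among them WT1 was lower at day 4.5 (adjusted p = 0.0478). It was at the floor under HAse1.5, beside an uneven 14.1 ± 15.0 CPM untreated (SD, n = 3). The 7 primitive streak and early mesoderm markers summed to 531 to 639 CPM untreated and 774 to 917 CPM under HAse1.5 at day 4.5. At day 7.5 they summed to 304 to 453 CPM untreated and 227 to 445 CPM under HAse1.5. Among them PDGFRA was lower under HAse1.5 at day 2.5 (adjusted p = 0.00215). In KO at day 2.5 MESP1 and MIXL1 were higher than in WT (adjusted p = 0.00225 and 0.000117). The part of these shifts in the FLT1 result was not tested.

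At day 2.5, after 1 day of enzyme, FLT1 had 180, 288 and 289 CPM untreated and 334, 390 and 385 CPM treated. The groups did not overlap, but the difference of 0.52 ± 0.19 (SE) had an adjusted p of 0.305. None of the 6 members tested for day 2.5 (FGD5 left aside) was called, against 1.15% of all genes tested, and 2 of them, FLT1 and KDR, had an unadjusted p under 0.05. For 4 of these 6 (ETV2, FLT1, KDR and TEK) the treated and untreated libraries did not overlap, against 13.5% of all genes tested. For TEK this rests on depth alone, since the lowest untreated library and the highest treated ones each held 1 read (0.894 CPM against at most 0.686 CPM), and nothing is read from its separation. The test of whether the HAse1.5 difference changed over days called 0 of the same 6 members, against 1.01% of all genes.

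KDR under HAse1.5 passed the threshold at no day. At day 2.5 it had 166, 278 and 232 CPM untreated and 111, 157 and 147 CPM under HAse1.5, lower in each line (-0.74 ± 0.29, SE; adjusted p = 0.347). At day 4.5 it had 109, 141 and 115 CPM untreated and 177, 178 and 157 CPM treated, higher in each line (0.41 ± 0.29, SE; adjusted p = 0.639). At day 7.5 the values were 131, 225 and 175 CPM and 126, 265 and 167 CPM, with no common direction. The test of the KDR difference over days had an unadjusted p of 0.0344 and an adjusted p of 0.358.

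ETV2 at day 2.5 was at 8.68, 11.6 and 8.97 CPM untreated (13 to 17 reads) and at 18.5, 15.2 and 20.0 CPM under HAse1.5 (19 to 32 reads). These treated libraries were the highest ETV2 values of the series, but the difference of 0.85 ± 0.55 (SE) had an adjusted p of 0.754. By day 4.5 ETV2 was at 3.22 ± 2.62 CPM untreated and 3.85 ± 3.66 CPM treated (SD, n = 3 each). TEK under HAse1.5 was lower in each line at day 4.5, with 8.87, 16 and 26.4 CPM untreated and 2.48, 9.51 and 8.73 CPM treated. The ranges met, and the TEK difference of -1.39 ± 0.52 (SE) had an adjusted p of 0.171. At day 7.5 TEK was at 10.4 ± 4.30 CPM untreated and 11.5 ± 5.87 CPM treated (SD, n = 3 each).

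FGD5, chosen on day 2.5, had 3, 1 and 0 reads untreated and 10, 27 and 12 reads under HAse1.5 (1.53, 0.894 and 0 CPM against 6.86, 21.6 and 7.49 CPM). Against the floor of 3 reads in each library this is at least 6.09-fold higher, and since these values chose the gene nothing is read from them. The WT libraries of the genotype arm at the same day, which the choice did not use, had 4 to 12 reads of FGD5 (3.28 ± 1.47 CPM, SD, n = 6). At day 4.5 FGD5 had 2.05, 1.78 and 3.48 CPM untreated and 14.3, 7.78 and 5.82 CPM under HAse1.5. All 3 lines were higher and the groups were apart, as were those of 21.6% of all genes tested. The FGD5 difference was 1.80 ± 0.75 (SE; adjusted p = 0.247). At day 7.5 FGD5 had 8.07 ± 3.27 CPM untreated and 8.35 ± 5.47 CPM treated (SD, n = 3 each).

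FGD5 shares 176 exonic bases with FGD5-AS1, a long noncoding gene on the opposite strand (chromosome 3, 14920347 to 14948424). Whether reads were counted by strand is not given in the sources used here, and without strand the 2 genes' reads cannot be told apart in the shared bases. FGD5-AS1 had 90.4 ± 7.47 CPM untreated and 91.5 ± 12.6 CPM under HAse1.5 at day 2.5 (SD, n = 3 each), a difference of -0.02 ± 0.21 (SE). At day 4.5 it had 67.7 ± 18.4 and 98.5 ± 14.8 CPM (SD, n = 3 each; adjusted p = 0.300). No other member shares exonic bases with a gene of the annotation.

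When the enzyme came in at day 2.5 no member was called. At day 4.5 the count was 0 of 7, against 0.220% of all genes tested, and at day 7.5 it was 0 of 7, against 0.659%. FLT1 was higher in each line at both days, with 279, 267 and 309 CPM at day 4.5 (0.47 ± 0.20, SE; adjusted p = 0.556) and 173, 149 and 136 CPM at day 7.5 (0.58 ± 0.20, SE; adjusted p = 0.215). These comparisons use the same untreated libraries as those of HAse1.5. FLT1 under HAse2.5 lay between untreated and HAse1.5 in mean level at both days, with 201, 285 and 441 CPM at day 4.5 and 97.9, 153 and 186 CPM at day 7.5.

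The junction genes had their highest means under HAse2.5, at day 4.5 for PECAM1 and CDH5 and at day 7.5 for ESAM. At day 7.5 the HAse2.5 and untreated libraries overlapped for each of these genes. PECAM1 then had a lower mean under HAse2.5 than untreated (8.26 ± 2.61 against 9.38 ± 7.56 CPM, SD, n = 3 each). ESAM had 7.97 ± 6.75 CPM under HAse2.5 and 5.14 ± 2.87 CPM untreated (SD, n = 3 each). CDH5 ran from 0.671 to 4.58 CPM under HAse2.5 and from 0.638 to 2.97 CPM untreated. PECAM1 at day 4.5 was at 3.41, 1.78 and 1.39 CPM untreated and at 18.7, 2.34 and 9.62 CPM under HAse2.5, which rests on 26, 3 and 15 reads. It was higher in each line, with a difference of 2.13 ± 0.81 (SE; adjusted p = 0.462). CDH5 had at most 3 reads in each untreated library at day 4.5 and 11, 0 and 10 reads under HAse2.5, and was not tested. ESAM had 4.31, 2.34 and 11.5 CPM under HAse2.5 at day 4.5 beside 1.36, 3.55 and 3.48 CPM untreated (adjusted p = 0.945). ERG had 1 to 15 reads in the HAse2.5 libraries of day 4.5 and 0 to 5 in the untreated ones. SOX18 had 0 reads in all untreated and all HAse2.5 libraries of day 4.5, where 3 reads are worth 2.27 CPM and 2.14 CPM on average. The line named WT was the lowest of the 3 HAse2.5 libraries of day 4.5 for PECAM1, CDH5 and ESAM.

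The 2 enzyme schedules were set against each other at matched days. At day 4.5, 0 of 7 members were called, against 0.361% of all genes tested, and 3 had an unadjusted p under 0.05. FLT1 was higher under HAse1.5 (0.58 ± 0.19, SE; adjusted p = 0.229), while PECAM1 (-2.75 ± 0.84, SE; adjusted p = 0.176) and TEK (-1.5 ± 0.52, SE; adjusted p = 0.248) were lower, each in all 3 lines. TEK was at 2.48, 9.51 and 8.73 CPM under HAse1.5 and at 13.7, 17.2 and 25.6 CPM under HAse2.5, with no overlap. The schedules did not overlap at day 4.5 for 16.3% of all genes tested. At day 7.5, 0 of 7 were called, against 0.00784% of all genes tested. No difference between the schedules in these genes is past the threshold, which does not show that they act alike.

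**Figure D3:**
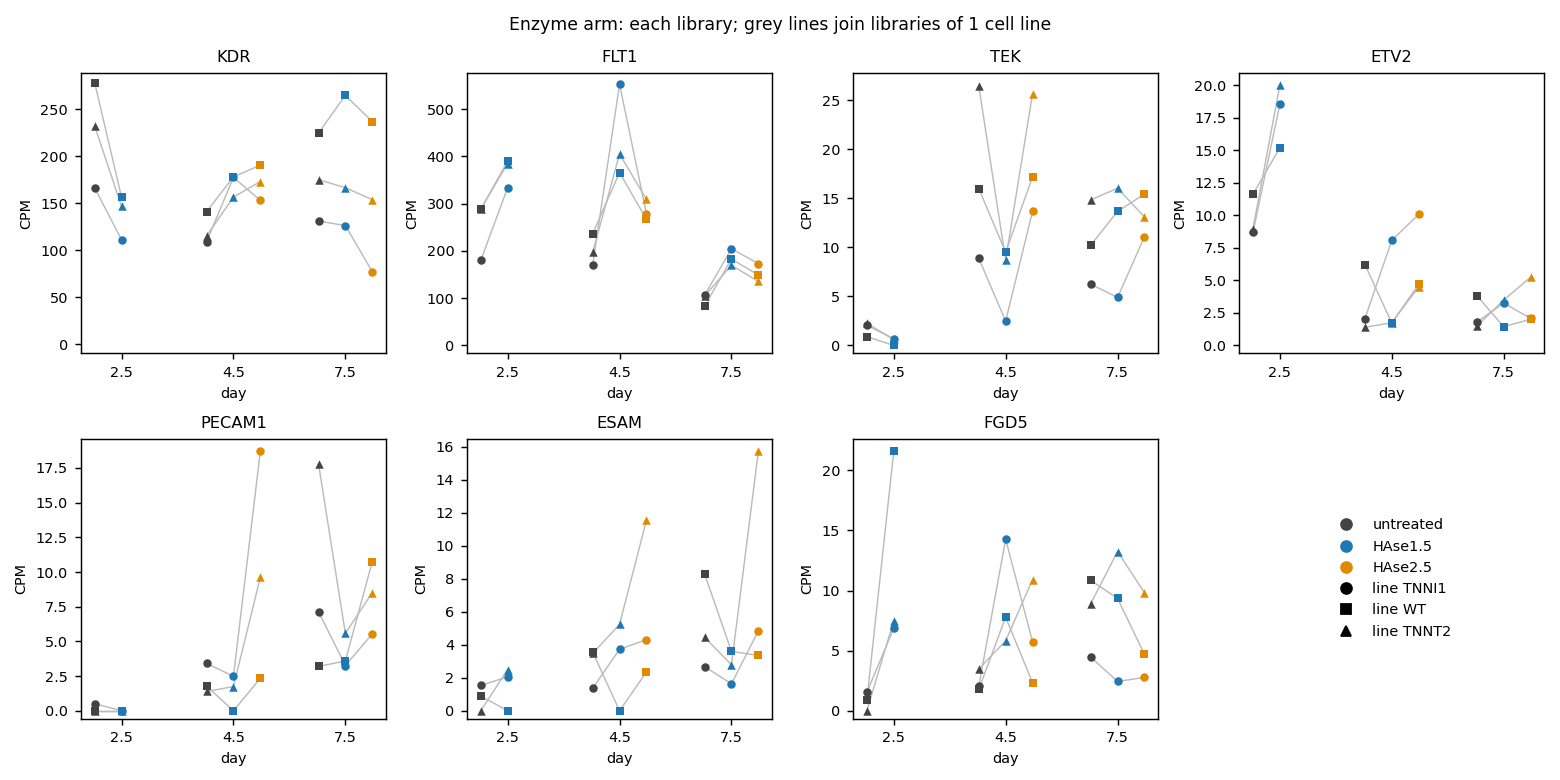
CPM of 7 members (panels) against day in the enzyme arm; each symbol is 1 library, its shape the cell line and its colour the treatment, and grey lines join libraries of 1 line and day. FLT1 is higher under HAse1.5 than untreated in every line at each day, and PECAM1 and ESAM spread widely under HAse2.5.

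The KO difference and the HAse1.5 difference were also compared with each other in a fit of all 65 libraries. The test called 0 of 6 members at day 2.5 (0.0925% of all genes), 0 of 7 at day 4.5 (0.271%) and 0 of 7 at day 7.5 (0.0925%). FLT1 had the clearest gap at day 2.5, where the KO difference was 0.97 ± 0.40 (SE) lower than the enzyme difference on the log2 scale (unadjusted p = 0.0200; adjusted p = 0.840). ETV2 at day 2.5 had a gap of -1.90 ± 0.88 (SE; unadjusted p = 0.0343; adjusted p = 0.939).

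**Figure D4:**
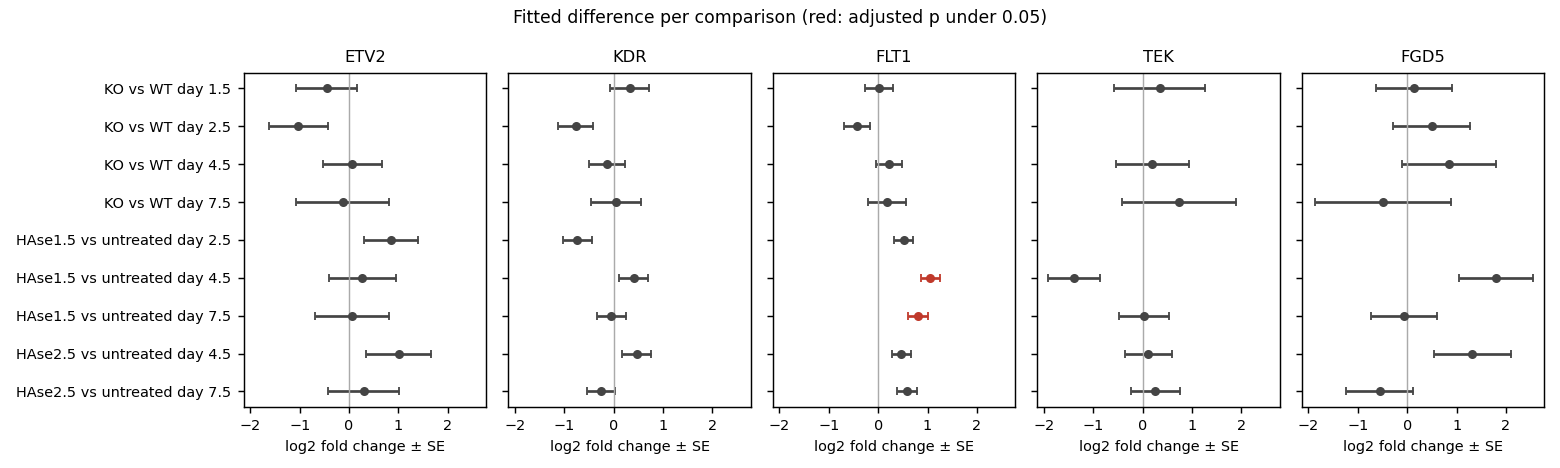
Fitted log2 difference ± SE of 5 members (panels) in each KO or enzyme comparison (rows); red marks an adjusted p under 0.05, and values with a group at the floor or used to choose the gene are left out. Only FLT1 under HAse1.5 at days 4.5 and 7.5 is red.

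The ligands of the 3 receptors were followed through the same steps. VEGFA, the main KDR ligand, rose at each WT step, starting at 17.8 ± 7.01 CPM (SD, n = 5). It reached 33.2 ± 7.65 and 125 ± 33.2 CPM at the middle days (SD, n = 6 each) and 258 ± 20.8 CPM at day 7.5 (SD, n = 3), with adjusted p of 0.0120, 6.82e-10 and 0.00579 for the steps. PGF, which binds FLT1 and not KDR, peaked at day 2.5 in WT with 34.4 ± 4.41 CPM, after 4.70 ± 2.58 CPM and before 5.45 ± 1.98 CPM at day 4.5 (rise adjusted p = 2.18e-06; fall adjusted p = 4.69e-07). ANGPT1, the agonist of TEK, had 0.509 ± 0.649 CPM at day 2.5 and rose at day 4.5, where it had 27.7 ± 14.7 CPM (SD, n = 6 each; adjusted p = 2.49e-09), the same step at which TEK rose. ANGPT2, the context-dependent TEK ligand, fell from 36.4 ± 20.7 CPM (SD, n = 5) to 2.84 ± 0.973 CPM (SD, n = 6) between days 1.5 and 2.5 (adjusted p = 1.38e-06).

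Between KO and WT 2 ligands were called, VEGFA at day 2.5 and ANGPT1 at day 4.5. VEGFA at day 2.5 was higher in KO, with 60.7 ± 16.1 CPM against 33.2 ± 7.65 CPM in WT (SD, n = 6 each; 0.82 ± 0.21, SE; adjusted p = 0.0377). ANGPT1 at day 4.5 was at 145 ± 67.3 CPM in KO and 27.7 ± 14.7 CPM in WT (SD, n = 6 each), and all 6 KO libraries lay above all 6 WT ones. KO and WT were apart at day 4.5, in either direction, for 2.44% of all genes tested. The ANGPT1 difference was 2.36 ± 0.40 (SE; adjusted p = 0.000231). Untreated libraries of the enzyme arm had 60.4 to 77.1 CPM of ANGPT1 at day 4.5. These too lay above all 6 WT libraries (at most 48.5 CPM) and inside the KO range (57.9 to 212 CPM). Under HAse1.5 at day 4.5 PGF rose beside FLT1, from 8.19, 6.22 and 9.04 CPM to 45.9, 15.6 and 15.7 CPM (1.62 ± 0.42, SE; adjusted p = 0.0285). ANGPT1 under HAse1.5 at day 4.5 was at 28.7 ± 7.59 CPM, beside 67.9 ± 8.51 CPM untreated (SD, n = 3 each; adjusted p = 0.240).

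**Figure D5:**
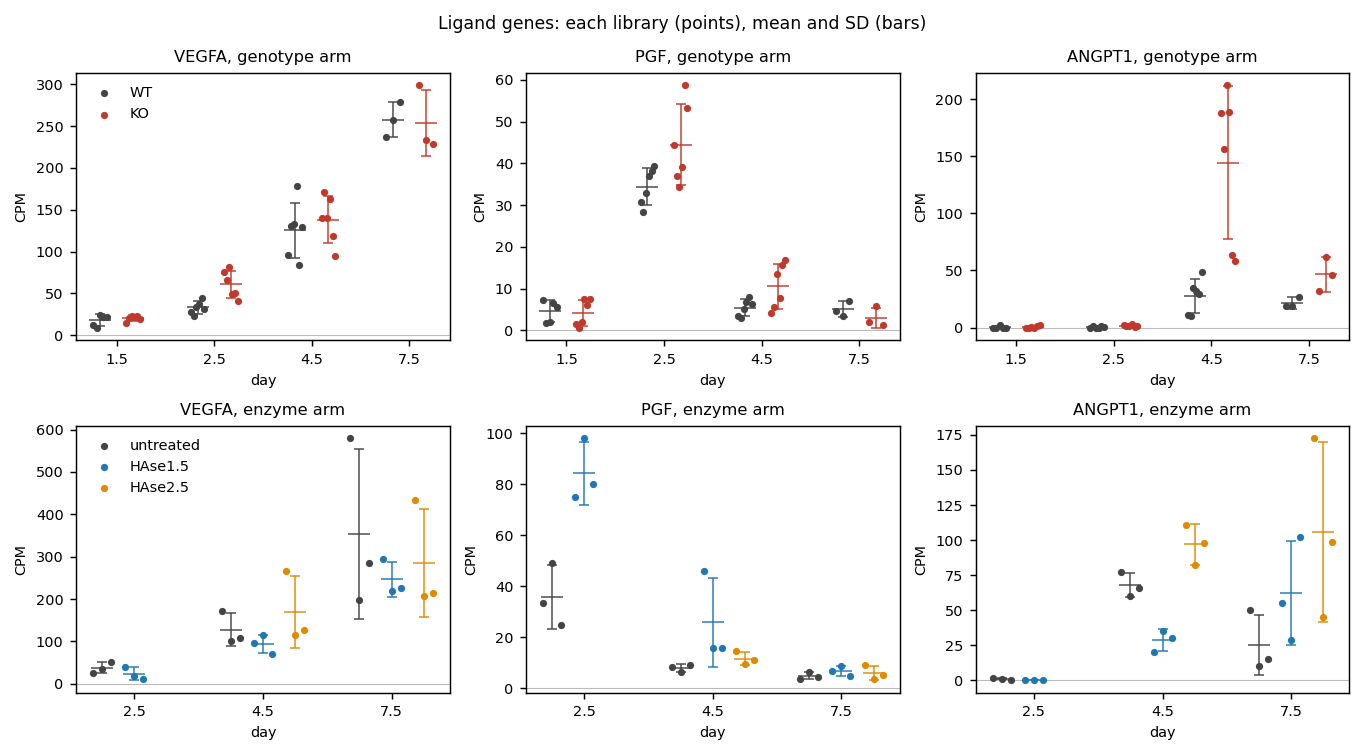
CPM of VEGFA, PGF and ANGPT1 (columns) against day in the genotype arm (top) and the enzyme arm (bottom); points are libraries and bars the mean ± SD. VEGFA climbs to day 7.5, PGF peaks at day 2.5, and ANGPT1 at day 4.5 is higher in all 6 KO libraries than in all 6 WT libraries.

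The other endothelial genes came from 6 related lists, chosen with earlier results of these data known, with 59 genes that are no members; 41 were tested in the genotype arm and 42 in the enzyme arm. In WT 13 rose and 8 fell between days 1.5 and 2.5, and again 13 rose and 8 fell between days 2.5 and 4.5, where 30.1% and 34.5% of all genes tested were called. In untreated cardioids 15 rose and 4 fell between days 2.5 and 4.5, against 23.0% of all genes tested, with a median difference of 0.80 beside 0.02 over all genes. Those that rose in this step included S1PR1, an endothelial sphingosine phosphate receptor (4.07 ± 0.90, SE), and LMO2, a partner of TAL1 in blood and endothelial progenitors (3.45 ± 0.67, SE). TIE1, the orphan partner of TEK, was at the floor before and at least 3.02-fold higher after. RAMP2, a subunit of adrenomedullin receptors, was also at the floor before and at least 5.71-fold higher after. The 4 that fell were PGF (-2.27 ± 0.42, SE), ARHGAP29 (-1.26 ± 0.28, SE), PLXND1, a semaphorin receptor (-1.36 ± 0.29, SE), and VWF, a clotting protein stored in endothelium. VWF had 11.9 ± 5.15 CPM at day 2.5 (SD, n = 3) and was at the floor at day 4.5, at least 5.26-fold lower (adjusted p = 0.00548). VWF lies outside the rule for named genes and was added after its values were seen. ARHGAP29, also outside that rule, is named as 1 of the 4 that fell. Between days 4.5 and 7.5, where 6.39% of all genes tested were called, untreated ENG, an endothelial surface gene, rose from 1.15 ± 1.45 to 32.8 ± 14.7 CPM (SD, n = 3 each). Its difference was 4.78 ± 0.90 (SE; adjusted p = 0.00304), and VEGFA rose too (1.58 ± 0.45, SE; adjusted p = 0.0422). The number of listed genes called in this later step ran from 1 to 5 over the alternatives. In WT the step from day 4.5 to 7.5 called VEGFA and HEY2, both higher (adjusted p = 0.00579 and 0.000863), but not ENG. There 2.70% of all genes tested were called.

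Between KO and WT the same lists gave 0 calls at day 1.5, 1 higher at day 2.5 (VEGFA), 5 higher at day 4.5 and 0 at day 7.5, against 0%, 0.993%, 3.74% and 0.348% of all genes tested. The day 2.5 count ran from 0 to 4 over the alternatives and moved in 7 of 12 fits that omitted 1 library. The 5 at day 4.5 were ANGPT1, NR2F2, a venous and atrial transcription factor (2.45 ± 0.41, SE), JAG1, a Notch ligand (1.68 ± 0.27, SE), HHEX (1.42 ± 0.39, SE) and MEF2C (0.96 ± 0.28, SE). The day 4.5 number ranged from 3 to 12 over the alternatives, and the 4 and 5 calls under HAse1.5 at days 4.5 and 7.5 from 1 to 8 and from 1 to 7. Under HAse1.5 no listed gene was called at day 2.5, 3 were higher and 1 lower at day 4.5, and 4 were higher and 1 lower at day 7.5, against 1.15%, 3.48% and 3.33% of all genes tested. The count of 0 at day 2.5 ran from 0 to 6 over the alternatives. LMO2 rose at both days, with 18.2 ± 7.55 CPM untreated and 65.4 ± 26.3 CPM treated at day 4.5, then 5.71 ± 0.845 and 81.9 ± 21.6 CPM at day 7.5 (SD, n = 3 each; adjusted p = 0.0247 and 0.000143). GATA2, a factor of blood and endothelial progenitors, also rose at both, with 27.4 ± 14.0 and 102 ± 27.3 CPM, then 16.7 ± 6.61 and 81.0 ± 27.7 CPM (SD, n = 3 each; adjusted p = 0.0230 and 0.0121). NR2F2 fell at both days (-3.00 ± 0.60 and -2.07 ± 0.57, SE), and at day 7.5 EFNB2, an arterial ligand, and NPR3, an endocardial receptor, rose. Under HAse2.5 no listed gene was called at day 4.5 or 7.5, and these counts ran from 0 to 3 and from 0 to 5 over the alternatives. RASIP1, an endothelial RAS-interacting protein, was the 1 listed gene called between the schedules (adjusted p = 0.0481). At day 4.5 RASIP1 was at the floor under HAse1.5, at least 5.43-fold lower than under HAse2.5 (11.2 ± 8.92 CPM, SD, n = 3). The count between the schedules at day 4.5 ran from 0 to 6 and moved in 8 of 11 alternatives, 4 of them among the 6 fits that omitted 1 library.

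For each of the 5 members tested in both arms the 3 other genes with the most similar pattern were taken from 12561 genes, by the Pearson correlation of log2 CPM over the 16 group means. The points share libraries' depth and the course of time, so the values are descriptions. For KDR they were TCF7L2, GBP4 and CDC27 (r from 0.90 to 0.92). For FLT1 they were WIPI2, PRDM1 and C1GALT1 (r = 0.92 each). TEK was closest to the pseudogene DRG1P2 and to the matrix genes EDIL3 and COL3A1 (r from 0.92 to 0.93), ETV2 to NMT1, NFATC1 and ACVRL1 (r from 0.82 to 0.83), and FGD5 to SIPA1L3, SLC27A3 and ELK3 (r from 0.80 to 0.86). Among the members themselves the highest value was 0.68, between ETV2 and FLT1, and KDR with FLT1 gave 0.51.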

How the data were processed

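Gene counts came from 3′ mRNA libraries (QuantSeq FWD, 8 pooled cardioids each, per the labels' protocols). The deposited values are raw counts per Ensembl gene, made by the authors with featureCounts of Subread 1.6.2 on hg38 (GRCh38), per the submitters' processing notes. The aligner, annotation release, strand setting, treatment of multiply mapped reads and molecular identifiers are not given in the sources used here. All 58735 gene IDs are in GENCODE 29, which gave positions. In the table, 4 further columns match no listed sample and were not used.

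Each arm was fitted with edgeR 4.0.16 (R 4.3.3; TMM factors, filterByExpr with a minimum count of 10, 1 mean per group, robust quasi-likelihood F-test, two-sided, Benjamini-Hochberg over all genes tested, threshold 0.05). DESeq2 1.42.0, RLE factors, no filter, only the groups compared, a replicate block, a library-number block and leaving out each library were alternatives; leaving out block A was added after seeing the data. No 2 libraries of a group agreed within sampling noise (lowest chi-square per degree of freedom 2.10 over 115 pairs). The labels' protocol speaks of biological replicates without saying what separates them, so p-values measure the spread between these libraries, which may be partly technical. In the enzyme arm replicate numbers name the 3 cell lines and so pair the samples (deviations correlated above 0.1 in 15 of 21 pairs). In the genotype arm replicate numbers do not name lines, and 9 of 32 pairs were above 0.1 (r from -0.44 to 0.81). There R1 and R2 of the lines WT, WT_TU and cl4 are blocks A and B, while R1 of the other KO clones lies in block C.

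The members and lists were chosen with earlier results of these data known. Members are all named; from each related list at most 4 genes past the threshold per comparison, those with the largest change, were eligible to be named.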

Additional observations from a re-analysis of the deposited data

Results flagged for a closer look

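KDR under HAse1.5 was lower than untreated in 3 of 3 lines at day 2.5 and higher in 3 of 3 lines at day 4.5, a shift of 1.15 between the 2 fitted log2 differences. The test of the difference over days had an unadjusted p of 0.0344 and an adjusted p of 0.358 by edgeR, and an adjusted p of 0.0388 without the filter on low counts. The cause was not tested. No library stood apart from its group in the 16 sets of libraries checked, each 1 member in 1 group of 5 or 6.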

How the results depend on the processing

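The counts of called members were kept under every alternative run for KO against WT at days 1.5, 4.5 and 7.5, for HAse1.5 at days 2.5 and 4.5, for HAse2.5 at both days, for the 2 schedules at both days, for the WT step from day 1.5 to 2.5, for the KO difference over days and for KO against HAse1.5. The WT step from day 2.5 to 4.5 had 1 call and gave 2 without the filter (SOX18 added), 2 with the replicate block (KDR added), 2 under DESeq2, 3 with the library-number block, 2 without block A, 0 in a fit of only the groups compared (where TEK was not among the genes tested), and 1 to 2 when 1 library was left out. The WT step from day 4.5 to 7.5 had 0 calls and gave 1 (FLT1) both with the library-number block and without block A. KO against WT at day 2.5 had 0 calls and gave 1 with the library-number block (FLT1) and 1 without block A (KDR). Leaving out 1 library gave 1 to 3 calls for the untreated step from day 2.5 to 4.5 and 0 to 2 for that from day 4.5 to 7.5 (PECAM1 added without the WT line library of day 7.5). Without the filter the untreated step from day 2.5 to 4.5 gave 2, with ETV2 lost. HAse1.5 at day 7.5 had 1 call and gave 0 in a fit of only the groups compared and 0 to 1 when 1 library was left out. The HAse1.5 difference over days had 0 calls and gave 1 (KDR) without the filter. The cause of these changes was not tested. With the replicate block, which pairs the 3 lines of the enzyme arm, no member call changed there: FLT1 under HAse1.5 had 1.05 at day 4.5 and 0.81 at day 7.5, and the untreated fall of ETV2 an adjusted p of 0.0487. The block moved counts of the related endothelial genes from 4 to 8 for HAse1.5 at day 4.5 and from 5 to 12 for KO at day 4.5. No called difference of a member changed sign. ETV2, TEK, FGD5, PECAM1 and ESAM rest on at most 40 reads in a library, which limits the precision of their differences.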
